A study of Mus musculus with 6 samples.

Results

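Early secreted cytokines and chemokines other than interleukin-2 were followed in naive CD4+ T cells activated with or without the chemokine CCL19. The members were the 10 genes Lif, Ifng, Csf2, Il21, Il16, Tgfb1, Ccl3, Ccl4, Ccl5 and Xcl1, picked by symbol from the 24470 genes of the deposited count table. Each symbol matched exactly 1 row, and all 10 passed the filter on low counts. With CCL19, the mRNAs of Lif, Ccl3, Xcl1 and Ccl4 stood between 1.27 and 1.51 times their level without it, and that of Il16 stood at 0.788 times. For each of the 5, the CCL19 libraries did not overlap the NoCKN libraries, as was so for 15.3% of tested genes on the higher side and 14.5% on the lower. DESeq2 called the 5, against 6.55% of all genes called higher and 5.60% called lower, while edgeR, the main test, called none. DESeq2 called no member when NoCKN replicate 1 or CCL19 replicate 1 was left out, though Lif and Ccl3 then had no adjusted p. Tgfb1 and Ccl5 passed no test on the counts as deposited. The intervals of Ifng and Csf2, with 18 to 70 reads in a library, spanned changes in both directions, and Il21, with 10 to 20 reads in a library, was too low to judge.

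Naive T cells that meet antigen secrete interleukin-2 within hours, and a wider set of secreted proteins starts to be transcribed at the same time. Transcription of most of these genes is driven by NFAT, AP-1 and NF-kB downstream of the T cell receptor and CD28, and many of the mRNAs are short-lived because AU-rich stretches in their 3′ untranslated regions recruit decay factors. LIF signals through gp130, GM-CSF (Csf2) acts on myeloid cells, interferon gamma (Ifng) and interleukin-21 (Il21) are products of differentiated helper cells, and the chemokines CCL3, CCL4 and CCL5 attract inflammatory leukocytes. XCL1 attracts the XCR1+ dendritic cells that cross-present antigen. Interleukin-16 (Il16) and transforming growth factor beta 1 (Tgfb1) differ in that resting T cells already hold their mRNA, and both proteins are made as precursors that must be cleaved or released.

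The cells were naive CD4+ T cells isolated by magnetic sorting (MACS) from male C57BL/6J mice, with spleens and skin-draining lymph nodes as the source. All were held for 6 h in 200 µL of medium on plastic coated with antibodies to CD3 and CD28 at 1 µg/mL, so both groups received the activating stimulus. The cells of 1 group also received recombinant mouse CCL19 (group CCL19, n = 3), and the others received no chemokine (group NoCKN, n = 3). The comparison asks what the CCR7 ligand CCL19 adds to the transcriptional answer to antigen receptor and CD28 signals. The labels give neither the age or number of mice nor the dose of CCL19, and do not tie replicates to animals or cultures. The p-values therefore reflect only how much these 6 samples scatter, and that scatter may be technical.

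Libraries held between 16978736 and 27429898 reads assigned to genes. Levels are given in CPM, the usual counts-per-million unit with library sizes scaled by TMM, and fold changes come from edgeR's quasi-likelihood test unless DESeq2 is named. Among 11666 tested genes, edgeR and limma-voom called 0% at a Benjamini-Hochberg adjusted p under 0.05, with a lowest edgeR adjusted p of 0.0505. At an unadjusted edgeR p under 0.05, 1696 genes were higher and 1517 lower. DESeq2 called 630 of 9613 genes higher with CCL19 (6.55%) and 538 lower (5.60%), and with a correction for transcript GC content and length 657 higher and 333 lower. The libraries did not separate cleanly by group. The closest pair by chi-square per degree of freedom was CCL19 replicate 3 with NoCKN replicate 3 (5.19), and the most distant was CCL19 replicate 1 with NoCKN replicate 1 (56.6). In bulk RNA, fewer cells producing a transcript and less of it per cell cannot be told apart.

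Per kilobase of exon the 10 mRNAs covered a range from Xcl1, at 511 ± 32.2 CPM per kb with CCL19 and 391 ± 74.4 without (SD, n = 3 each, as for every mean ± SD here), to Il21, at 0.221 ± 0.0265 CPM per kb with CCL19 and 0.172 ± 0.0248 without. Without CCL19 the order by level per kb was Xcl1, Tgfb1, Il16, Ccl4, Ccl3, Ccl5, Lif, Csf2, Ifng and Il21. In that order the libraries of Il16 and Ccl4 overlapped, as did those of Ccl3 and Ccl5 and those of Csf2 and Ifng, and no other neighbours overlapped. With CCL19, Ccl4 (73.7 ± 7.45 CPM per kb) stood above Il16 (48.1 ± 6.92), which was the only change in the order. In NoCKN libraries Ccl4 had 57.8 ± 6.02 and Il16 had 61.0 ± 7.60 CPM per kb.

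**Figure D1:**
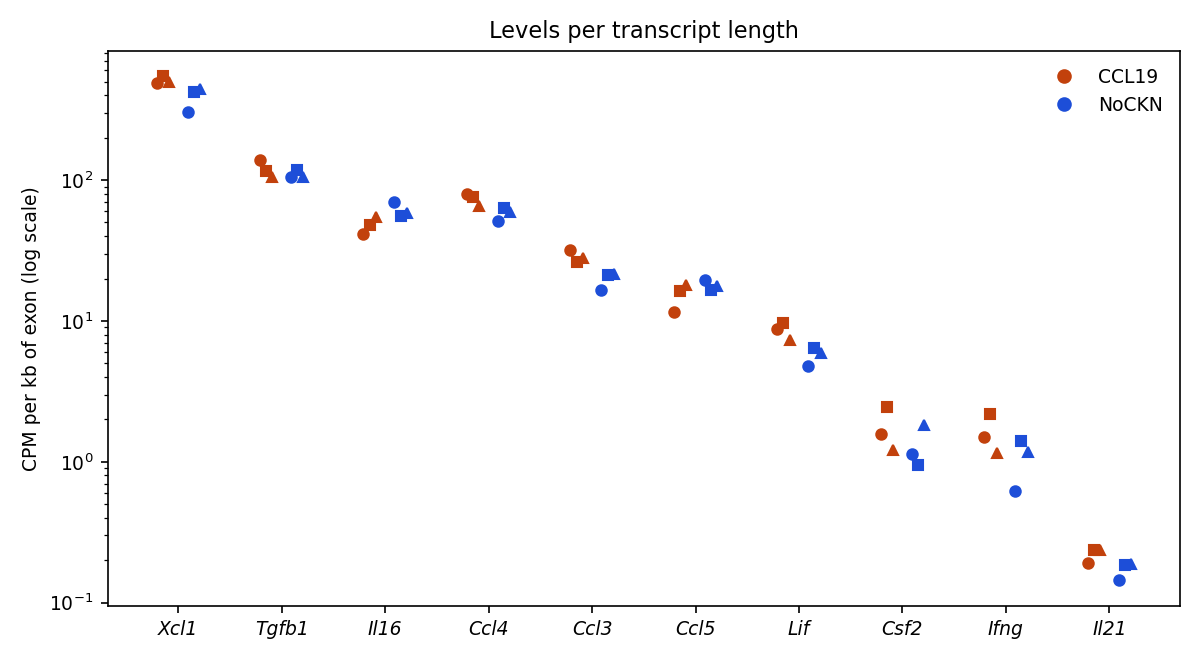
Level of each mRNA per kilobase of exon in every library, on a log axis, ordered by the NoCKN mean, with CCL19 libraries left of NoCKN libraries and symbols marking replicates 1 to 3. Mean levels with CCL19 run from 511 CPM per kb for Xcl1 down to 0.221 for Il21.

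Lif (NCBI Gene 16878, mm10 chromosome 11, 4257568 to 4272514, plus strand) encodes leukaemia inhibitory factor, a cytokine of the interleukin-6 family. It had 35.4, 39.4 and 29.5 CPM in CCL19 libraries, from 588, 1049 and 636 reads, against 19.5, 25.9 and 23.9 CPM in NoCKN libraries, from 471, 712 and 440 reads. The lowest CCL19 library lay above the highest NoCKN library. The means were 34.8 ± 4.98 CPM with CCL19 and 23.1 ± 3.30 CPM without. This gave a log2 fold change of 0.59 ± 0.12 (SE) and a 1.51-fold difference with a 95% interval of 1.25 to 1.81. DESeq2 called it (adjusted p = 0.00256), and edgeR stopped just short of the threshold (adjusted p = 0.0505). Among all tested genes, 96.9% had a smaller absolute log2 fold change.

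The 250 bases before the start of Lif are shown with those of Ccl3 and Xcl1, the 3 single-start members with the largest differences that DESeq2 called and whose promoter was in the table of RefSeq promoters used (GRCm38.p6). Each is written 5′ to 3′ on the gene's own strand, and capitals mark matches on either strand to the NFAT core GGAAA, the AP-1 site TGANTCA, the κB consensus or the TATA box TATAAA, none of which overlap each other here.
Lif, chr11:4257318-4257567, plus strand: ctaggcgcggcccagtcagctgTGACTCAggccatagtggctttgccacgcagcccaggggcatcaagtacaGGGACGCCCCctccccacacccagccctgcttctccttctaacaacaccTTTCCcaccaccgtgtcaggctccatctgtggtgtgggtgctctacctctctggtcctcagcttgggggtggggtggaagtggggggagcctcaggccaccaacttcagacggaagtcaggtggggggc
Ccl3, chr11:83649379-83649628, minus strand: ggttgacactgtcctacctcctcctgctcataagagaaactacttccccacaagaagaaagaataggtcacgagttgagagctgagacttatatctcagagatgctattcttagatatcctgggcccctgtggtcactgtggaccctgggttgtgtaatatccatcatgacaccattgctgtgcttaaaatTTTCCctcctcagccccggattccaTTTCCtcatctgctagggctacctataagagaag
Xcl1, chr1:164935523-164935772, minus strand: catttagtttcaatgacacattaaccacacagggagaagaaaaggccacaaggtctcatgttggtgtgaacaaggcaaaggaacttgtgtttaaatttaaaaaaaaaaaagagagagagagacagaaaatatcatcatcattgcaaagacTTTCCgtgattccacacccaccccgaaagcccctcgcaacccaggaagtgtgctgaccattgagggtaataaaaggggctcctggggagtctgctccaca
The Lif window held an AP-1 match that begins at position -228 from the start, a κB match at -178 and an NFAT core match at -129. Of 32851 promoter windows of the same length, 6.75% held the AP-1 letters, 7.25% the κB consensus and 55.6% the NFAT core. The Ccl3 window held NFAT core matches at -59 and -34, and the Xcl1 window held a match at -100. The table held promoters for 8 of the 10 members. Of those not shown, Ifng had an NFAT core match at -172 and TATAAA at -30, Csf2 had NFAT core matches at -200 and -55, Il21 had them at -201, -118 and -74, and Tgfb1 had a κB match at -140. The Il16 window used had an AP-1 match at -18 and an NFAT core match at -235, so Lif was not the only member with the AP-1 letters. None of the 3 windows shown held TATAAA, which 12.4% of windows did. A match of letters is not a bound site.

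Csf2 (NCBI Gene 12981, chromosome 11, 54247270 to 54249899, minus strand), which encodes the myeloid growth factor GM-CSF, had 21, 52 and 21 reads in CCL19 libraries and 22, 21 and 27 reads in NoCKN libraries. That is 1.26, 1.95 and 0.974 CPM with CCL19 and 0.909, 0.764 and 1.47 CPM without. CCL19 replicate 2 was the highest library, and the other CCL19 libraries lay among the NoCKN ones. The fold was 1.39 with a 95% interval of 0.818 to 2.38 (edgeR adjusted p = 0.408), and the log2 fold change of 0.48 became 0.12 when CCL19 replicate 2 was left out.

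Ifng (NCBI Gene 15978, chromosome 10, 118441046 to 118445894, plus strand), which encodes the signature cytokine of type 1 helper cells, had 30, 70 and 30 reads in CCL19 libraries and 18, 47 and 26 reads in NoCKN libraries. Its levels were 1.81, 2.63 and 1.39 CPM with CCL19 and 0.744, 1.71 and 1.41 CPM without. The groups overlapped, since CCL19 replicate 3 lay below NoCKN replicates 2 and 3. The fold of 1.52 was as large as that of Lif, but its 95% interval of 0.918 to 2.52 included no change (edgeR adjusted p = 0.266). Its log2 fold change of 0.60 became 0.29 when CCL19 replicate 2 was left out and 0.32 when NoCKN replicate 1 was.

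Il21 (NCBI Gene 60505, chromosome 3, 37222759 to 37232636, minus strand), the B cell help cytokine of follicular helper cells, had 10, 20 and 16 reads in CCL19 libraries and 11, 16 and 11 reads in NoCKN libraries. The exact Poisson 95% interval of a count of 10 is 4.80 to 18.4, and that of 20 is 12.2 to 30.9. These intervals cover counting error only, and reads are not independent molecules. In CPM the CCL19 libraries, at 0.602, 0.751 and 0.742, lay above the NoCKN libraries, at 0.455, 0.582 and 0.597, but the gap between the nearest libraries was far within counting error. The fold was 1.298 with an interval of 0.740 to 2.28 (edgeR adjusted p = 0.547). Il21 lies 96.8 kb from Il2, whose level was 44.0 ± 4.997 CPM with CCL19 and 29.3 ± 4.996 CPM without. DESeq2 gave none of Csf2, Ifng and Il21 an adjusted p, because their mean counts were under its own filter.

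AU-rich letters were common among these mRNAs. In the 3′ untranslated region of the longest coding GENCODE M21 transcript, 8 of the 10 members held the pentamer ATTTA, as did 65.2% of 20327 genes, and 3 held the nonamer TTATTTATT, as did 7.55% of genes. The first nonamer of each of those 3 is shown in capitals with its flanks, on the transcript strand.
Csf2: ttttaaatatTTATTTATTtatttatttat
Lif: aaaggggcctTTATTTATTatttaaaactt
Il21: aacttaatgaTTATTTATTatgtatttggt
Csf2 was the densest, with 9 pentamers in 317 bases, or 28.4 per kb, against a median of 1.24 per kb over all genes. Ccl3 held 5 in 409 bases and Ifng 6 in 631, whereas Lif held 7 in 3180. The 2 members with no ATTTA, Il16 and Ccl5, were also the 2 whose log2 fold change with CCL19 was below 0. The 95% interval of Ccl5 (-0.56 to 0.12) included 0, and a link between pentamer and direction was not tested. Over all tested genes the difference ran the same way but was small, with a median log2 fold change of 0.02 in 7591 genes with the pentamer and -0.05 in 3420 genes without it. Base composition ran with it, at a median GC content of 48.1% in genes with the pentamer and 54.7% in genes without, and its part in the difference was not tested.

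Il16 (NCBI Gene 16170, chromosome 7, 83643063 to 83735490, minus strand) encodes a precursor whose cleaved product binds CD4. It had 219, 257 and 293 CPM in CCL19 libraries, from 3641, 6843 and 6318 reads, against 372, 296 and 309 CPM in NoCKN libraries, from 8989, 8119 and 5697 reads. The CCL19 libraries all lay below the NoCKN libraries, but CCL19 replicate 3 and NoCKN replicate 2 were nearly level. The means were 256 ± 36.9 CPM with CCL19 and 325 ± 40.5 CPM without, the log2 fold change was -0.34 ± 0.11 (SE), and the fold was 0.788 with a 95% interval of 0.669 to 0.928. DESeq2 called it (adjusted p = 0.0237), and edgeR did not (adjusted p = 0.0768). Correcting for transcript GC content and length moved the DESeq2 value to -0.29 and ended the call (adjusted p = 0.0760). RefSeq lists 3 starts for this gene, and the counts, made over the whole gene, do not tell them apart.

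Tgfb1 (NCBI Gene 21803, chromosome 7, 25687002 to 25705077, plus strand) encodes a suppressive cytokine that is secreted in a latent form. It had 299.8, 250.2 and 229 CPM in CCL19 libraries and 229, 257 and 229.9 CPM in NoCKN libraries. Only CCL19 replicate 1 stood above the range of the NoCKN libraries. The means were 260 ± 36.2 CPM with CCL19 and 239 ± 15.7 CPM without. The fold was 1.09 with a 95% interval of 0.942 to 1.26 (edgeR adjusted p = 0.441, DESeq2 adjusted p = 0.432), and leaving out CCL19 replicate 1 gave a log2 fold change of 0.00. Its transcript is GC-rich (62.5%), in the highest of 10 GC classes, whose median log2 fold change was -0.16. Under the same correction its log2 fold change was 0.29, and DESeq2 then called it (adjusted p = 0.0362) while edgeR did not (adjusted p = 0.09996).

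**Figure D2:**
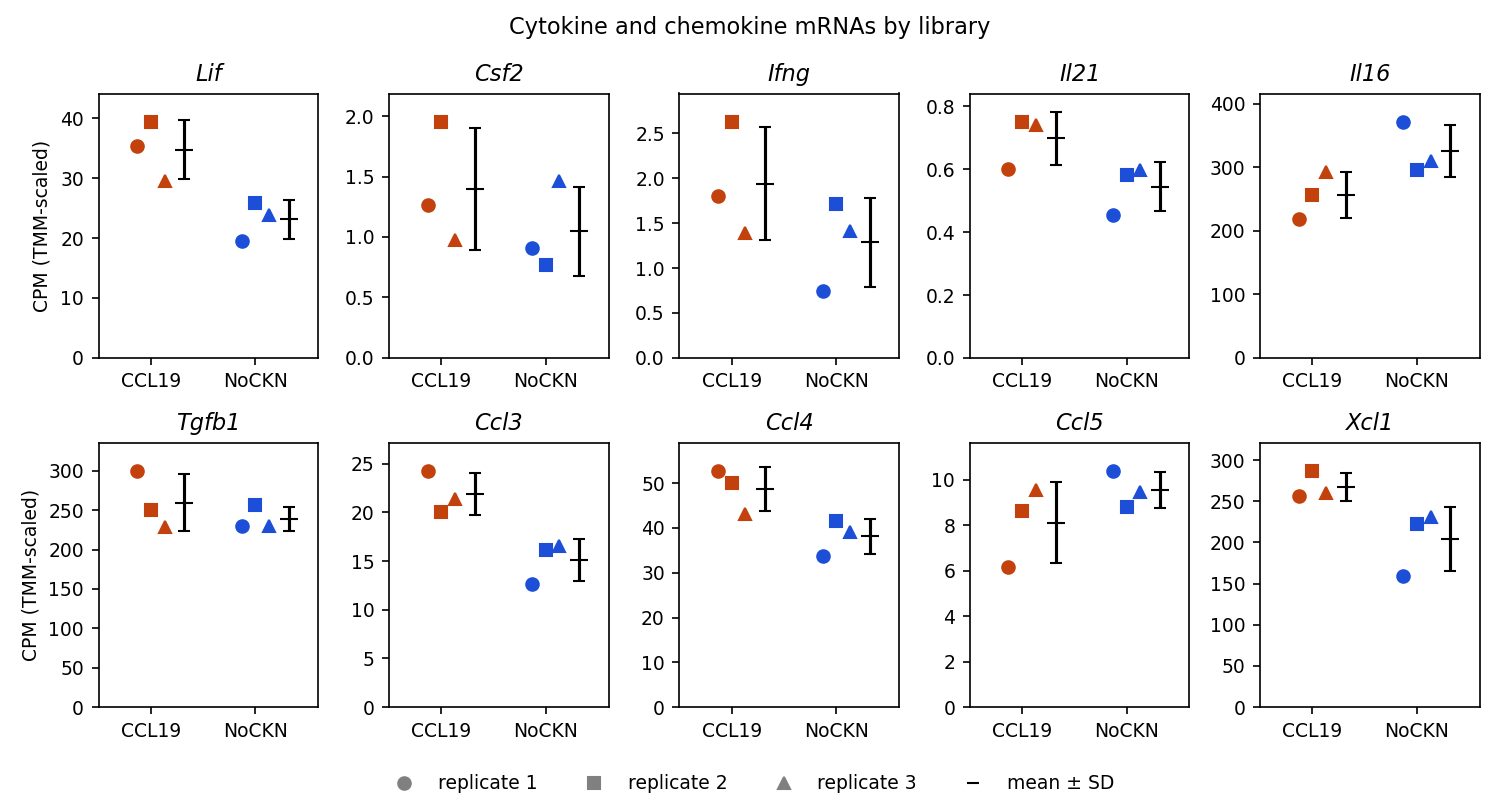
TMM-scaled CPM of each mRNA, with a point for each library (symbols mark replicates 1 to 3), CCL19 on the left and NoCKN on the right of each panel, and bars for the mean ± SD (n = 3). The groups are apart for Lif, Ccl3, Ccl4, Xcl1, Il16 and, at under 1 CPM, Il21.

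Ccl3 (NCBI Gene 20302, minus strand, 83647843 to 83649378) and Ccl4 (NCBI Gene 20303, plus strand, 83662584 to 83664683) lie 13.2 kb apart on chromosome 11 and encode the inflammatory chemokines MIP-1α and MIP-1β. Ccl3 had 24.2, 20.1 and 21.4 CPM in CCL19 libraries, from 403, 535 and 461 reads, against 12.6, 16.2 and 16.5 CPM in NoCKN libraries, from 306, 444 and 304 reads. The CCL19 libraries all stood above the NoCKN libraries. The log2 fold change was 0.53 ± 0.12 (SE), or 1.45-fold with a 95% interval of 1.21 to 1.73 (DESeq2 adjusted p = 0.00689, edgeR adjusted p = 0.0505). Ccl4 had 52.7, 49.98 and 43.2 CPM in CCL19 libraries against 33.7, 41.5 and 39.2 CPM in NoCKN libraries. Its groups were also apart, though CCL19 replicate 3 lay close to NoCKN replicate 2. The fold was 1.27 with an interval of 1.10 to 1.48 (DESeq2 adjusted p = 0.0274, edgeR adjusted p = 0.0606).

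Ccl5 (NCBI Gene 20304, minus strand, 83525778 to 83530518), encoding RANTES, which T cells are known to make late after activation, lies 117 kb from Ccl3 in the same cluster and did not share the direction of Ccl3 and Ccl4. It had 6.14, 8.64 and 9.55 CPM in CCL19 libraries, from 102, 230 and 206 reads, against 10.4, 8.81 and 9.44 CPM in NoCKN libraries, from 251, 242 and 174 reads. The groups overlapped, and CCL19 replicate 1 was the lowest library. The log2 fold change was -0.22 with a 95% interval of -0.56 to 0.12 (edgeR adjusted p = 0.384, DESeq2 adjusted p = 0.425), and without CCL19 replicate 1 it was -0.07. The chemokine genes that lie between Ccl5 and Ccl3 were low, with Ccl9 at 2.14 ± 0.166 CPM with CCL19 and 1.82 ± 0.560 CPM without, and Ccl6 at 0.506 ± 0.274 CPM in CCL19 and 0.567 ± 0.407 CPM in NoCKN libraries.

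Xcl1 (NCBI Gene 16963, chromosome 1, 164931648 to 164935510, minus strand), which encodes lymphotactin, was the highest of the 10 per length. It had 256, 287 and 259 CPM in CCL19 libraries, from 4252, 7633 and 5596 reads, against 160 (159.7), 222 and 231 CPM in NoCKN libraries, from 3863, 6108 and 4256 reads. All CCL19 libraries lay above all NoCKN libraries, and NoCKN replicate 1 was far below the others of its group. The means were 267 ± 16.8 CPM with CCL19 and 204 ± 38.9 CPM without. The fold was 1.31 with a 95% interval of 1.10 to 1.55 (DESeq2 adjusted p = 0.0184, edgeR adjusted p = 0.0671). Without NoCKN replicate 1 the log2 fold change was 0.24 in place of 0.39, and neither edgeR (adjusted p = 0.250) nor DESeq2 (adjusted p = 0.0873) called it.

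**Figure D3:**
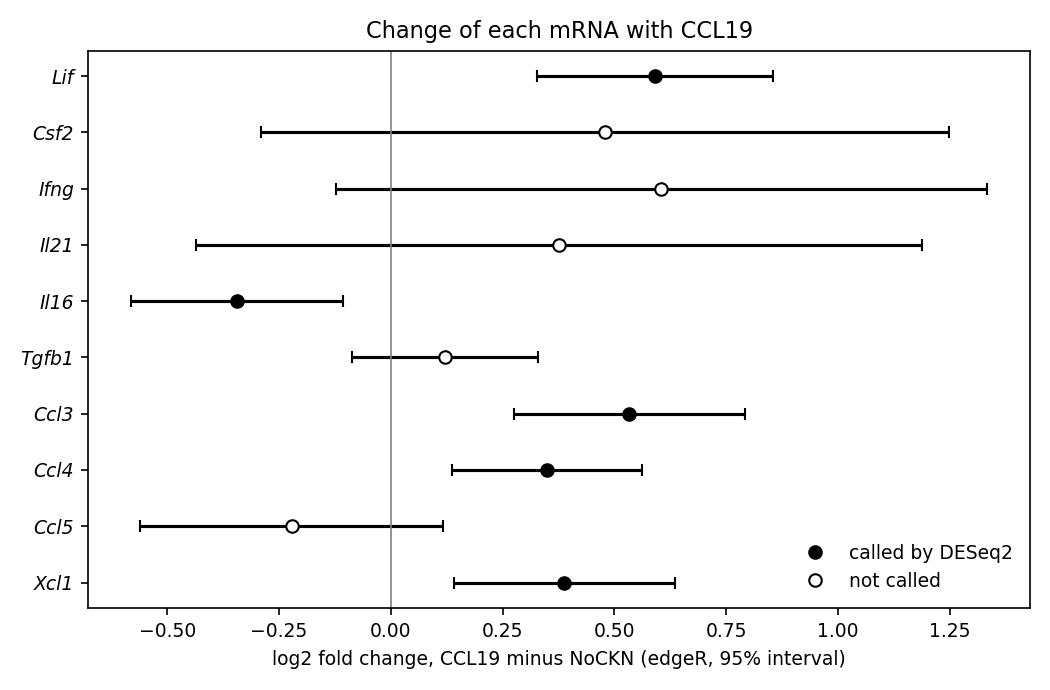
Log2 fold change of each mRNA, CCL19 minus NoCKN, from edgeR with its 95% interval, with filled points for genes that DESeq2 called. The intervals of Lif, Ccl3, Ccl4, Xcl1 and Il16 leave out 0, and those of Csf2, Ifng and Il21 are the widest.

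Counted over the members, DESeq2 called 4 higher (Lif, Ccl3, Ccl4 and Xcl1) and 1 lower (Il16), of 7 with an adjusted p. The background of such calls over all genes was 6.55% and 5.60%, as given above. The groups did not overlap for 5 members on the higher side, against 15.3% of tested genes, and for 1 on the lower side, against 14.5%. Among the 5 was Il21, which was too low to judge. At an unadjusted edgeR p under 0.05, 4 members were higher (14.5% of tested genes) and 1 was lower (13.0%), while edgeR and limma-voom called 0 after adjustment. The log2 fold change was above 0 for 8 of the 10, against 49.8% of tested genes, and its median was 0.38 against 0.00 over all tested genes. The genes were chosen with these data known, so the counts describe them and do not test them. The authors' deposited table of changed genes lists the same 4 members as higher and the same 1 as lower with CCL19. It rests on the same libraries, and DESeq2 here called all 1168 of its genes, so the match is no independent support.

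The size of these differences rested in part on NoCKN replicate 1. That library held the lowest of the 6 values for 6 members (Lif, Ifng, Il21, Ccl3, Ccl4 and Xcl1) and the highest for 2 (Il16 and Ccl5). It was an extreme for 54.1% of tested genes as well, as was CCL19 replicate 1 for 53.8%, against 21.0% to 26.6% for each of the other libraries. With each library left out in turn, the edgeR log2 fold change lay between 0.48 and 0.69 for Lif, 0.42 and 0.59 for Ccl3, 0.27 and 0.42 for Ccl4, 0.24 and 0.48 for Xcl1, and -0.46 and -0.24 for Il16. The lowest absolute value came without NoCKN replicate 1 in all 5. DESeq2 called no member without NoCKN replicate 1 or without CCL19 replicate 1, and only Ccl3 without CCL19 replicate 2. In the fits without NoCKN replicate 1 or CCL19 replicate 1 it gave Lif and Ccl3 no adjusted p, and in the first of these none to Ccl4 either. Without CCL19 replicate 3, a member of the closest pair of libraries, both DESeq2 and edgeR called Lif, Ccl3, Ccl4, Xcl1 and Il16.

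**Figure D4:**
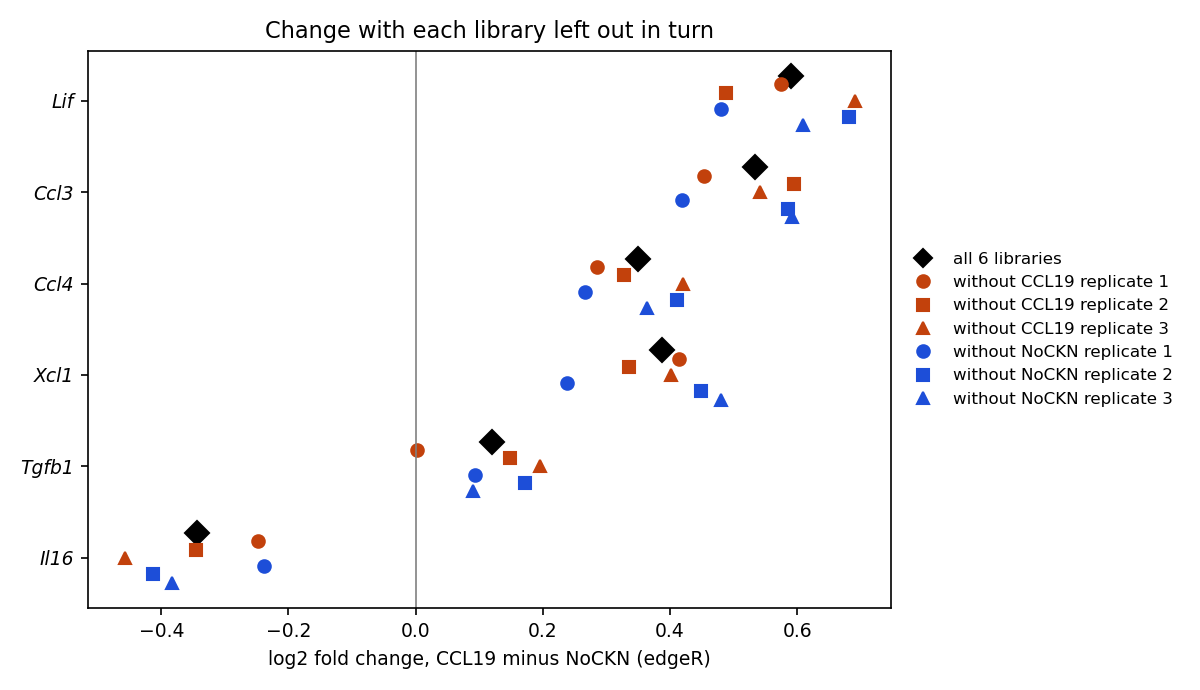
Log2 fold change from edgeR, CCL19 minus NoCKN, with all 6 libraries (black diamonds) and with each library left out in turn, for the 5 members that DESeq2 called and for Tgfb1. No value crosses 0. For Lif, Ccl3, Ccl4, Xcl1 and Il16 the value nearest 0 is the one without NoCKN replicate 1, and Tgfb1 reaches 0.00 without CCL19 replicate 1.

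The lists from here on are to be read against all tested genes. Of these, 14.5% were higher and 13.0% lower at an unadjusted edgeR p under 0.05, and DESeq2 called 6.55% higher and 5.60% lower. Of 19 receptor genes, 15 passed the filter. edgeR called 0 of them, 2 higher and 4 lower had an unadjusted p under 0.05, and DESeq2 called 1 higher and 1 lower of 11. The higher one was Il2rg, the common gamma chain that the interleukin-21 receptor shares with others, at 1021 ± 36.8 CPM with CCL19 and 878 ± 46.1 CPM without (DESeq2 adjusted p = 0.0339). The lower one was the TGF-beta coreceptor Tgfbr3, at 39.4 ± 3.35 CPM in CCL19 and 49.4 ± 6.62 CPM in NoCKN libraries (DESeq2 adjusted p = 0.0430). Ifngr2, a chain of the interferon gamma receptor, stood at 58.4 ± 11.9 CPM in CCL19 and 73.6 ± 2.19 CPM in NoCKN libraries (DESeq2 adjusted p = 0.0511), and Tgfbr2, the ligand-binding TGF-beta receptor, at 283 ± 22.5 CPM in CCL19 and 332 ± 28.5 CPM in NoCKN libraries (DESeq2 adjusted p = 0.0580). Lifr had at most 10 reads in a library, Ccr1, a CCL3 receptor, at most 4 and Xcr1 at most 3, and these failed the filter, whereas Il6st, which encodes gp130, stood at 211 ± 4.29 CPM in CCL19 and 213 ± 6.97 CPM in NoCKN libraries.

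Of 39 other cytokine genes, 15 passed the filter. edgeR called 0, with 4 higher and 1 lower at an unadjusted p under 0.05, and DESeq2 called Il2 and lymphotoxin alpha (Lta) higher and none lower of 6. The median log2 fold change of the 15 was 0.30. Tnf, the inflammatory cytokine encoded beside Lta, had 568 ± 45.8 CPM in CCL19 libraries and 471 ± 63.3 CPM in NoCKN libraries (DESeq2 adjusted p = 0.0564), and its neighbour lymphotoxin beta, Ltb, had 668 ± 23.3 CPM in CCL19 and 763 ± 67.0 CPM in NoCKN libraries (DESeq2 adjusted p = 0.0891). Il3, 15.2 kb from Csf2, was as low as Il21, at 0.687 ± 0.0555 CPM in CCL19 and 0.556 ± 0.241 CPM in NoCKN libraries. Of 31 other chemokine genes, 10 passed the filter, edgeR called 0, 1 was higher and 1 lower at an unadjusted p under 0.05, and DESeq2 called 0 of 3. Cxcl10, an interferon-induced chemokine, stood at 13.8 ± 3.27 CPM in CCL19 and 9.63 ± 3.13 CPM in NoCKN libraries (DESeq2 adjusted p = 0.0903). It overlaps Art3 on the other strand, so its reads are uncertain.

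Genes that act on or respond to the members were counted in lists. For the release of TGF-beta 1, 7 of 13 genes passed the filter, and edgeR called 0, with 1 higher and 0 lower at an unadjusted p under 0.05. DESeq2 called 1 of 4 higher, the integrin subunit Itgav, which helps free the latent cytokine, at 114 ± 14.98 CPM with CCL19 and 85.6 ± 13.1 CPM without (adjusted p = 0.0165). Of the integrin beta subunit genes on this list, Itgb6 had 0 reads in every library and Itgb8 at most 22 in a library. Of 14 targets of TGF-beta signalling, 11 passed the filter, edgeR called 0, with 2 higher and 3 lower at an unadjusted p under 0.05, and DESeq2 called 1 higher and 2 lower of 9. The lower ones included Smad7, the feedback inhibitor that the pathway induces, at 131 ± 4.88 CPM in CCL19 and 169 ± 19.0 CPM in NoCKN libraries (DESeq2 adjusted p = 0.00442). The higher one was the cell cycle inhibitor Cdkn1a, at 85.9 ± 8.39 CPM in CCL19 and 62.2 ± 12.1 CPM in NoCKN libraries (DESeq2 adjusted p = 0.00972).

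Of 23 targets of interferon gamma, 22 passed the filter, with a median log2 fold change of 0.30. None passed edgeR after adjustment, although 12 were higher and 0 lower at an unadjusted p under 0.05, against 14.5% and 13.0% of all tested genes. The groups did not overlap for 2 of the 22, against 15.3% of all tested genes on the higher side and 14.5% on the lower. NoCKN replicate 1 was the lowest library for many of these genes, and NoCKN replicate 3 often lay near the CCL19 libraries. Iigp1, an interferon-induced GTPase, had 149, 181 and 164 CPM in CCL19 libraries and 68.6, 122 and 164 CPM in NoCKN libraries, and the part of NoCKN replicate 1 in the list's count was not tested. DESeq2 called 2 of 21 higher, the transcription factor Irf8, at 165 ± 28.5 CPM with CCL19 and 120 (119.8) ± 22.0 CPM without (adjusted p = 0.0140), and Wars, a tRNA synthetase induced by interferon, at 193 ± 14.4 CPM in CCL19 and 158 ± 18.9 CPM in NoCKN libraries (adjusted p = 0.0393). Most of these genes also answer to type I interferon. Of 13 targets of STAT3 and STAT5, which act below gp130 and the gamma-chain receptors, 12 passed the filter, edgeR called 0, with 2 higher and 0 lower at an unadjusted p under 0.05. DESeq2 called Il2ra and the feedback inhibitor Cish higher, the second at 97.3 ± 12.4 CPM in CCL19 and 74.3 ± 15.7 CPM in NoCKN libraries (adjusted p = 0.0432). Socs3, a feedback inhibitor of gp130 signalling, stood at 62.5 ± 2.16 CPM in CCL19 and 69.4 ± 5.58 CPM in NoCKN libraries (DESeq2 adjusted p = 0.270).

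Among 30 regulators of cytokine transcription, 29 passed the filter and edgeR called 0. At an unadjusted edgeR p under 0.05, 10 were higher and 3 lower, against 14.5% and 13.0% of all tested genes. DESeq2 called 4 higher and 0 lower, against 6.55% and 5.60% of genes. The 4 were Irf4, induced by antigen receptor signals, at 1033 ± 159 CPM with CCL19 and 739 ± 107 CPM without (adjusted p = 0.00368), the NF-kB subunits Nfkb1 (adjusted p = 0.0142) and Rel (adjusted p = 0.0290), and Bhlhe40, which promotes GM-CSF production. Bhlhe40 overlaps another gene on the other strand, so its counts are uncertain. Of 12 genes listed for control of mRNA decay, some of which encode proteins that do not bind AU-rich letters, all passed the filter, edgeR called 0, with 2 in each direction at an unadjusted p under 0.05, and DESeq2 called 1 in each direction. The decay factor Zfp36l2 was the lower one, at 308 ± 4.49 CPM in CCL19 and 414 ± 63.0 CPM in NoCKN libraries (adjusted p = 0.00249), and the stabilizing factor Elavl1 (HuR) was the higher one, at 154 ± 8.25 CPM in CCL19 and 128 ± 6.68 CPM in NoCKN libraries (adjusted p = 0.0209).

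Since CD8 T cells, natural killer cells and memory cells make Ifng, Ccl3, Ccl4, Ccl5 and Xcl1 readily, markers of other cells were read beside them. Natural killer markers summed to between 27.1 and 27.7 CPM in CCL19 libraries and between 27.8 and 31.0 CPM in NoCKN libraries, with 5 of 11 under 1 CPM everywhere, among them the defining receptor Ncr1, which had at most 11 reads in a library. Most of that sum was Prf1, at 17.4 ± 0.688 CPM in CCL19 and 19.0 ± 1.11 CPM in NoCKN libraries. CD8 T cell markers summed to between 121 and 125 CPM with CCL19 and between 86.4 and 113 CPM without. Most of that sum was Crtam, a gene that activated CD4 cells also express and that DESeq2 called higher (adjusted p = 0.0184), while Cd8a stood at 1.85 ± 0.339 CPM in CCL19 and 1.78 ± 0.0427 CPM in NoCKN libraries and Cd8b1 at 13.3 ± 2.18 CPM in CCL19 and 12.998 ± 0.231 CPM in NoCKN libraries. Markers of memory, effector and regulatory T cells summed to between 258 and 280 (280.3) CPM with CCL19 and between 218 and 248 CPM without. More than any others, Itgb1 and Il2rb made up this sum, the second at 70.4 ± 5.78 CPM in CCL19 and 59.2 ± 7.34 CPM in NoCKN libraries, while 5 of the 12 genes had a log2 fold change below 0 and Foxp3 stood at 10.5 ± 0.520 CPM in CCL19 and 10.4 ± 0.415 CPM in NoCKN libraries. DESeq2 called 1 of 8 higher, the integrin gene Itgb1 (adjusted p = 0.0480). The part of such cells in the member results was not tested. CD4 T cell markers were high in every library, with Cd4 at 570.2 ± 25.6 CPM in CCL19 and 634 ± 52.5 CPM in NoCKN libraries, and DESeq2 called 1 of 11 lower, the CCL19 receptor gene Ccr7, at 358 ± 25.3 CPM in CCL19 and 445 ± 58.1 CPM in NoCKN libraries (adjusted p = 0.0185). Of these 11, 9 had a log2 fold change below 0 and 2 above 0. Their sum was between 4685 and 5136 CPM with CCL19 and between 5051 and 5451 CPM without. B cell markers summed to at most 38.4 CPM with CCL19 and 43.2 CPM without, myeloid markers to at most 23.5 CPM with CCL19 and 26.95 CPM without, and dendritic cell markers to at most 14.1 CPM with CCL19 and 16.1 CPM without. DESeq2 called 0 genes of these 3 lists and of the natural killer list, and edgeR called 0 marker genes in all. At an unadjusted edgeR p under 0.05, the marker genes numbered 5 higher and 1 lower for memory, effector and regulatory T cells, 1 and 0 for CD8 T cells, 1 and 2 for CD4 T cells, 0 and 2 for B cells, 0 and 1 for natural killer cells, and 0 in either direction for myeloid and dendritic cells. Over all tested genes the shares were 14.5% higher and 13.0% lower.

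For each member the tested genes with the most similar pattern over the 6 libraries were found by the root mean square difference of centred log2 CPM. The closest were picked from the 11666 tested genes after predicted-gene names, clone names and repeated symbols were left out. With so many candidates near matches were likely for any member, and no link was tested. Ifng had only 18 to 70 reads in a library. For Ifng the nearest was Tbx21 (0.12), which encodes the transcription factor T-bet, followed by the interleukin-12 receptor gene Il12rb1 (0.14). For Lif the nearest were Pdgfb (0.06) and Fam83g (0.07), for Ccl4 Pogk (0.01) and Tfdp1 (0.02), and for Ccl3 Kif15 (0.02). Il16 was nearest to the diacylglycerol kinase gene Dgka (0.01) and to Sesn1 (0.02), and Xcl1 to Zbed5 (0.05) and Gbp8 (0.05). The level of Tbx21 was 13.01 ± 3.74 CPM in CCL19 libraries and 8.91 ± 2.51 CPM in NoCKN libraries (edgeR adjusted p = 0.125, DESeq2 adjusted p = 0.0791).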

How the data were processed

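Messenger RNA of 6 samples, 3 per group, was compared. The authors deposited raw read counts per gene with NCBI Gene IDs and mm10 coordinates, per the file headers. Reads were aligned with STAR 2.5 and counted with featureCounts 1.5.0-p1, per the submitters' processing notes. Strand handling, multiply matching reads and the annotation were not given in the sources used here. A second deposited file, the authors' table of changed genes, lists 1168 genes with the direction in words, all of them also called by DESeq2 here. The submitters' processing notes also name DESeq2 1.28.1.

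The whole table was fitted in R 4.3.3 by edgeR 4.0.16 (TMM scaling, filterByExpr, quasi-likelihood test), with Benjamini-Hochberg adjustment over 11666 genes and a threshold of 0.05. DESeq2 1.42.0 and limma 3.58.1 (voom) were also run. DESeq2 used its own size factors and independent filtering at 0.1. A member was too low to judge if its mean count was under 20 in both groups. Log2 CPM used a prior count of 2. Transcript length and GC content came from GENCODE M21 on the same assembly, for 95.9% of tested genes, and the offset used natural splines of 5 degrees of freedom. Other alternatives were DESeq2 size factors in edgeR, 2 other filters, a robust prior, a replicate block and each library left out. The tests were also run on simulated counts drawn without outlying libraries. That outcome is not given here, and no result above rests on it. Promoters came from RefSeq (GRCm38.p6) and figures from matplotlib 3.10.9. Libraries of 16978736 to 27429898 reads were compared, and Poisson intervals cover counting error only.

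The rule named all 10 members, at most 4 genes of lowest p from each list and the 2 most similar genes of each member, of which a selection is given. Members and lists were chosen with earlier results of these data known. Genes named outside the rule, such as Il3, Il6st, Lifr, Ccr1, Xcr1, Itgb6, Ccl9, Ccl6, Iigp1 and the markers, were chosen after their values were seen. The values of 1 gene in the list of TGF-beta targets are not reported here.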

Additional observations from a re-analysis of the deposited data

How the results depend on the processing

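DESeq2, listed in advance as an alternative, called 1168 genes and 5 members where edgeR called 0 of each. edgeR with no filter called 1600 genes and 5 members, and with a robust prior 529 genes and 2 members, Lif and Ccl3. DESeq2 size factors, limma-voom, a filter keeping genes at 1 CPM in 3 or more libraries, the offset for GC content and length, and that offset with the replicate block each gave 0 genes and 0 members. With each library left out in turn, edgeR called between 0 and 1599 genes and between 0 and 5 members. In alternatives chosen after seeing the data, DESeq2 called 55, 123 and 1704 genes and 0, 1 and 5 members without CCL19 replicates 1, 2 and 3 in turn. It called 105, 1010 and 1258 genes and 0, 5 and 5 members without NoCKN replicates 1, 2 and 3 in turn. It called 990 genes and 5 members with the offset, Tgfb1 entering and Il16 leaving. With the replicate block DESeq2 called 178 genes and 1 member, Xcl1, and edgeR 0 of each. The same-numbered samples' deviations from their group means correlated at -0.16, 0.08 and -0.02, and those of differently numbered samples at -0.21 to 0.22. With so few samples, such correlations cannot show whether same-numbered samples shared animals or preparations. No member's log2 fold change changed sign in the settings that gave it an adjusted p. DESeq2 settings gave no adjusted p for Csf2, Ifng and Il21. With all libraries their DESeq2 log2 fold changes were 0.45, 0.60 and 0.37. Lif, Ccl3 and Ccl5 had no adjusted p from DESeq2 with the replicate block or without CCL19 replicate 1 or NoCKN replicate 1. The same held for Ccl5 without CCL19 replicate 2 and for Ccl4 without NoCKN replicate 1. The 1 CPM filter left out Il21. Csf2, Ifng and Il21 had 10 to 70 reads in a library.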
